A study of Mus musculus with 4 samples.

Results

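The genes of the cytosolic translation initiation factors (eIFs) and elongation factors (eEFs) were examined in sorted mouse pancreatic beta cells. They were chosen by name alone, as the gene symbols that start with Eif or Eef followed by a digit and then only lower case letters and digits, with both genes of the eIF2 gamma subunit left out. This gave 67 of the 31017 gene names in the deposited count tables. One of them, Eif2c5, carries the former prefix of the argonaute genes and is a member by name only. Gene expression had been measured by bulk RNA sequencing in wild-type C57BL/6J male mice of 10 weeks, in 2 libraries of CD63 high and 2 libraries of CD63 low beta cells, and the comparison addressed how these beta cell groups differ. Islets were cultured overnight and dissociated before the sort by flow cytometry on CD63, a tetraspanin of late endosomes, lysosomes and secretory vesicles. No treatment, transgene or Cre is named for either group. The labels do not say how many mice were pooled or whether replicates came from separate mice or sorts, so that p-values cover the spread between these libraries, which may be technical.

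Initiation starts when eIF2, bound to GTP and the initiator tRNA, joins the small ribosomal subunit with eIF1, eIF1A, eIF3 and eIF5. The eIF4 factors bind the cap of the mRNA and unwind its leader, and eIF5B joins the large subunit at the start codon. In elongation, eEF1A delivers aminoacyl tRNA, the eEF1B complex recharges eEF1A with GTP, eEF2 moves the ribosome along the mRNA, and eIF5A helps at difficult peptide bonds. Beta cells make large amounts of proinsulin, and loss of the eIF2 alpha kinase PERK causes early diabetes in mice and humans.

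Several of these factors are controlled through short protein sites rather than through the amount of their mRNA, and the counts analysed here do not measure that control. The coding sequences of 4 such kinds of site are shown because the genes that carry them are among those described below. They were read from the GENCODE M21 transcripts (GRCm38, the same assembly as mm10) and are written 5′ to 3′ on the coding strand, with the codon or codons of the site in capitals.
Eif2s1: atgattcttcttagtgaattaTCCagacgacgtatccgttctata
Eef2: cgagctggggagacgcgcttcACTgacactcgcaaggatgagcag
Eif5a: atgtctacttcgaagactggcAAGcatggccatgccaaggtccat
Eif5a2: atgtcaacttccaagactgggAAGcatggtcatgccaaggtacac
Eif4ebp1: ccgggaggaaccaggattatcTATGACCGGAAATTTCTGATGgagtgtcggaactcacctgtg
Eif4ebp2: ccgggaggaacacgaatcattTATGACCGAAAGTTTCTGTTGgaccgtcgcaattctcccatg
In Eif2s1 (chr12:78866659-78866703, plus strand, exon 2 of 8) the capitals are codon 52, the serine that the eIF2 alpha kinases phosphorylate. In Eef2 (chr10:81177809-81177853, plus strand, exon 2 of 14) they are codon 57, the threonine that eEF2 kinase phosphorylates. In Eif5a (chr11, minus strand, exons 3 and 4 of 7) and Eif5a2 (chr3, plus strand, exons 2 and 3 of 5) they are codon 50, the lysine that is converted to hypusine. The Eif5a and Eif5a2 stretches differ at 6 of 45 bases and at 0 of the 3 in capitals. In Eif4ebp1 (chr8, plus strand) and Eif4ebp2 (chr10, minus strand) the capitals, which begin at codons 53 and 54 and lie in exon 2 of 3, encode the motif that binds eIF4E. These stretches differ at 15 of 63 bases, 3 of them within the motif.

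The libraries held 29249270 to 35003307 counts, so that 3 counts, taken as the floor, correspond to 0.0857 to 0.103 CPM, the count scaled to the library total, in a library. The insulin genes took 48.7% to 56.4% of counts. Cd63 transcript, a check of the sort, stood at 1974 and 2077 CPM in the replicates sorted as CD63 high and at 1186 and 1120 CPM in those sorted as CD63 low (log2 fold change 0.81, SE 0.19, edgeR adjusted p 0.0484). All 12 beta cell markers were measured, at a summed 540036 to 623758 CPM, and 3 of the 12 (Slc2a2, Slc30a8 and Mafa) fell in CD63 high while 0 rose. Markers of other cells were higher in the CD63 high libraries. The 7 alpha cell markers summed to 5547 and 5755 CPM in the CD63 high libraries, compared with 395 and 534 CPM in the others, and the 12 macrophage markers to 175 and 618 against 24.9 and 47.1 CPM. Among the tested markers 2 of 6 alpha, 3 of 3 delta, 3 of 3 gamma, 5 of 10 acinar, 1 of 5 duct and 11 of 12 macrophage genes rose, and 0 of 2 endothelial and 0 of 2 fibroblast genes. Summed levels in the CD63 high libraries were 465 and 842 CPM for delta, 2403 and 3894 for gamma, 630.3 and 870.5 for acinar and 2902 and 1521 for duct markers, against 67.6 and 48.7, 515 and 310.0, 15.1 and 234, and 812 and 961 CPM in the CD63 low libraries. Endothelial and fibroblast markers summed to at most 6.02 CPM, and Amy2a5, Cftr and Cdh5 had 0 counts in every library. The part of these other cells in the values of the translation factors was not tested, and in bulk libraries fewer cells of a type and less RNA per cell cannot be told apart.

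Levels between genes were compared per length, as TPM, computed from counts over the exon length in the deposited tables and scaled to the same sum in every library. That exon length can exceed the mRNA, as for Eif4a1 with 4334 bases against 1774 in its longest coding transcript. Ranks by TPM therefore depend on the length used. The genes of eIF5A, eIF1 and eEF1A stood first on this measure. Eif5a reached 419 and 467 TPM in CD63 high replicates 1 and 2 and 383 and 408 TPM in CD63 low replicates 1 and 2. Eif1, whose product guards start codon choice, had 362 and 372 against 327 and 326 TPM, and Eef1a1 had 262 and 220.4 against 206 and 227 TPM. The 4 libraries of each of these genes lay apart from those of the next. Eef2 (mean 109 TPM) and Eif1b (90.6 TPM) overlapped each other. Eif3g, Eif4ebp1, Eif6, Eif4a3 and Eif4a1, with means of 73.8, 68.3, 68.0, 65.5 and 61.3 TPM, completed the 10 highest, and the ranges of their libraries overlapped.

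**Figure D1:**
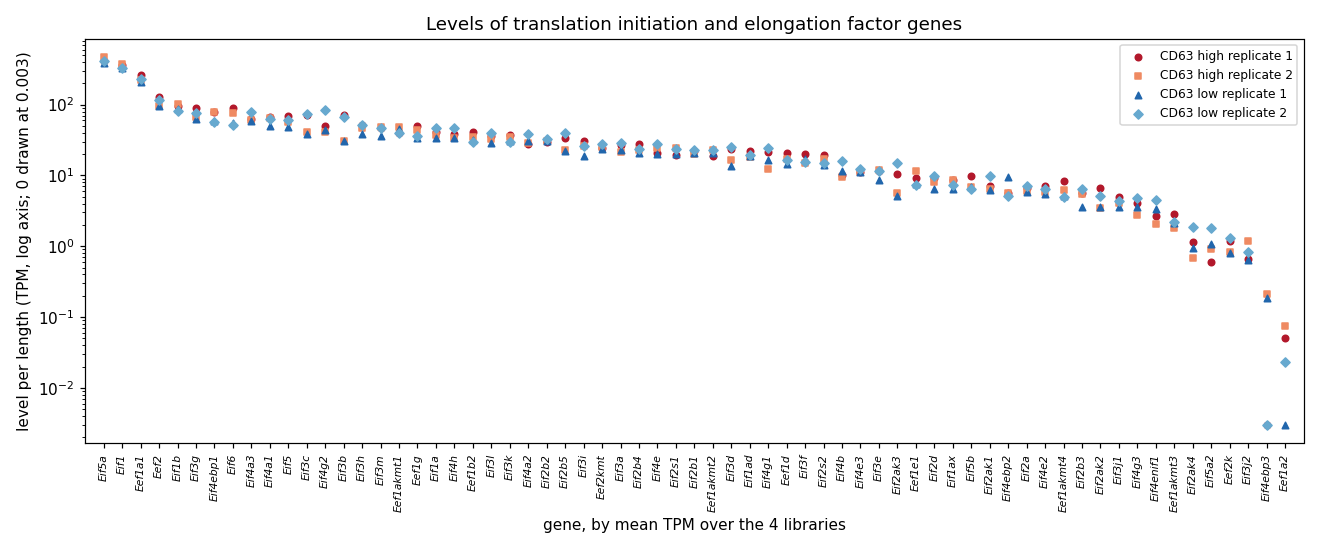
Level per length (TPM, log axis) of each translation factor gene with a count in any library, in order of the mean over all libraries, with 1 point per library. Eif5a, Eif1 and Eef1a1 lead with means of 419, 347 and 229 TPM, and Eif4ebp3 and Eef1a2 lie at the floor with means of 0.0997 and 0.0371 TPM.

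At the low end, 4 of the 67 genes did not pass the filter on low counts. Eef1a2, the eEF1A paralog of neurons and muscle, had 2 and 3 counts in the replicates of CD63 high cells and 0 and 1 in those of CD63 low cells, so that Eef1a1 stood for nearly all eEF1A transcript here. Eif4ebp3 had 0 and 3 against 3 and 0 counts, too few to detect a difference. Exons of Ankhd1 on the same strand cover 67.3% of its exon bases. The part of this overlap in its low counts was not tested. Eif4e1b, an eIF4E paralog known from oocytes, and Eif2c5 had 0 counts in every library, which allows up to 0.103 CPM in the shallowest of them, for counting error only. The 4 genes have no fold change.

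No translation factor gene was called different between CD63 high and CD63 low cells. edgeR's quasi-likelihood test called 0 of the 63 tested members at a Benjamini-Hochberg adjusted p under 0.05, against 369 (2.79%) of 13241 tested genes, of which 331 (2.50%) were higher and 38 (0.287%) lower in CD63 high. An unadjusted p under 0.05 was reached by 4 members, against 14.9% of all genes. That count was 3 and 2 without CD63 high replicates 1 and 2 (12.3% and 11.2% of all genes), 12 without CD63 low replicate 1 (18.8%) and 1 without CD63 low replicate 2 (12.2%). limma-voom called 0 members, against 2.14% of all genes, and DESeq2 called 1 (Eif6), against 5.18%. The log2 fold changes, CD63 high over CD63 low, ran from -0.81 (Eif5a2) to 0.68 (Eif6) with a median of 0.15, beside a median of -0.01 over all tested genes. They were above 0 for 47 of 63 members (74.6%) and for 48.6% of all tested genes.

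A p that misses the threshold does not show that levels were alike, so the intervals were examined. The pointwise 95% interval of the log2 fold change lay within 2-fold in either direction for 54 of the 63 members and within 1.5-fold for 14. For the other 9 members a 2-fold difference was within the interval. The CPM values of the groups did not overlap for 33 members, higher in CD63 high for 24 (38.1%, against 23.8% of all genes) and lower for 9 (14.3%, against 22.2%), and overlapped for 30. These counts moved with the scaling, to 23 higher and 5 lower by total counts (22.5% and 20.4% of all genes) and to 14 higher and 5 lower in TPM (19.6% and 20.4%). Summed over all members, levels were 5443 and 5495 CPM in CD63 high and 5059 and 4791 CPM in CD63 low libraries with TMM scaling. As shares of total counts, without that scaling, they were 0.560% and 0.520% against 0.466% and 0.533%, where the groups overlapped.

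**Figure D2:**
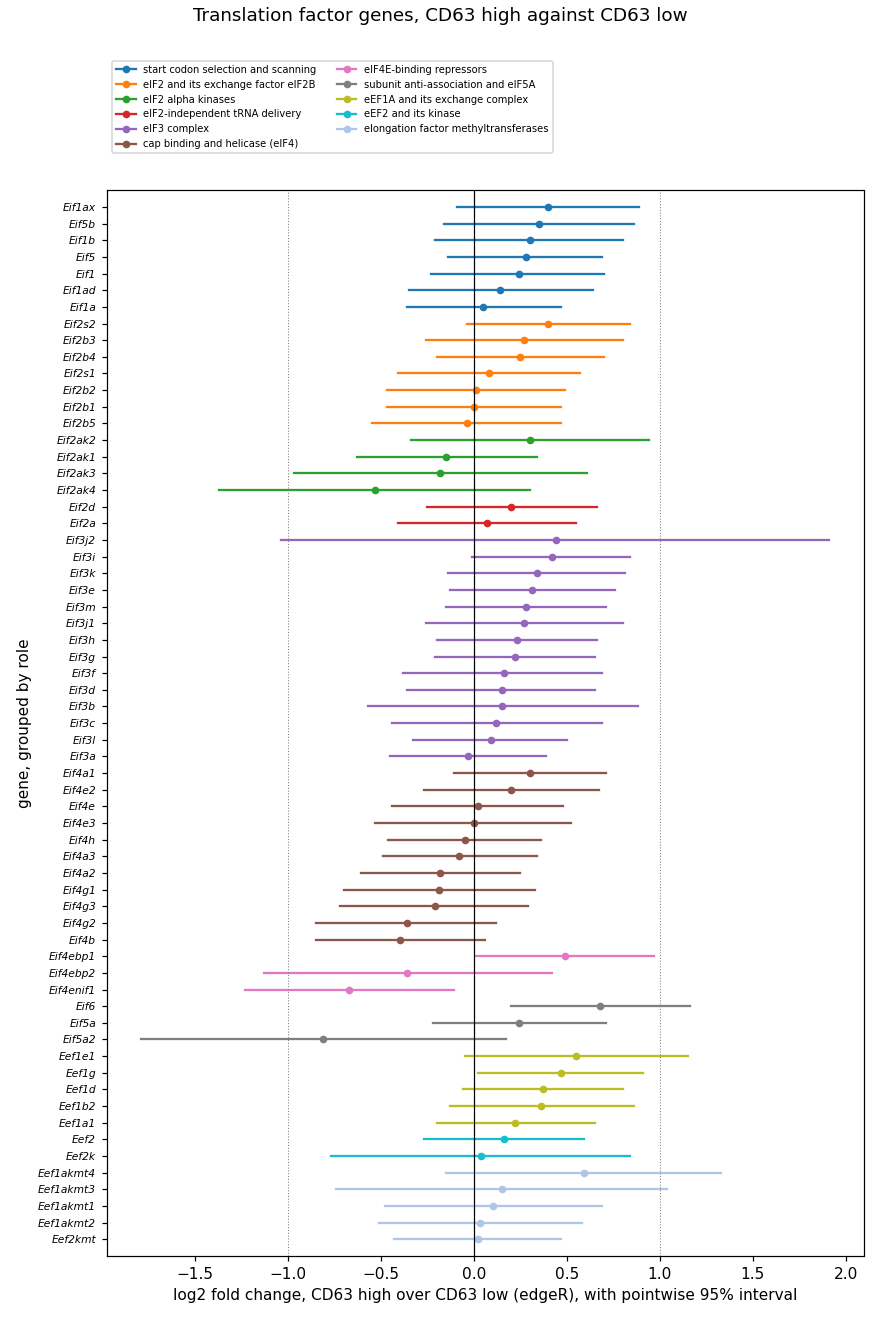
Log2 fold change (CD63 high over CD63 low, edgeR) of the 63 tested translation factor genes with its pointwise 95% interval, grouped and coloured by role, with dotted lines at 2-fold. None passed after adjustment, the intervals of Eif6, Eif4ebp1, Eef1g and Eif4enif1 exclude 0, and those of 9 genes reach 2-fold.

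Among the factors of scanning and start codon choice, 0 of 7 passed, and all 7 log2 fold changes lay above 0, between 0.05 (Eif1a) and 0.40 (Eif1ax). Eif5, the GTPase activator of eIF2 that fires at the start codon, stood at 287 and 267 CPM in CD63 high and 235 and 222 CPM in CD63 low replicates 1 and 2. In CPM its groups did not overlap, but in TPM they overlapped, at 69.1 and 56.7 against 48.7 and 60.8. Its log2 fold change of 0.28 (SE 0.19) had an edgeR adjusted p of 0.555. Eif1 had 463 and 539 against 485 and 367 CPM, and its paralog Eif1b 64.9 and 78.7 against 68.5 and 48.5 CPM. For both genes CD63 low replicate 1 lay between the CD63 high libraries, and their log2 fold changes were 0.24 (SE 0.21) and 0.30 (SE 0.23). Of the eIF1A genes, only Eif1ax had groups that did not overlap, with Eif1ax on chromosome X at 27.7 and 31.1 against 24.1 and 20.6 CPM and Eif1a at 71.7 and 74.5 against 68.4 and 72.3 CPM. Eif5b, the GTPase of subunit joining, had a log2 fold change of 0.35 (SE 0.23), and Eif1ad, a gene named for an eIF1A-like domain, one of 0.14 (SE 0.22).

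The eIF2 subunits and its exchange factor eIF2B did not pass either, with 0 of 7 genes and a median log2 fold change of 0.08. Eif2s1, the alpha subunit that carries the regulatory serine shown above, stood at 58.5 and 82.4 CPM in CD63 high and 71.2 and 62.3 CPM in CD63 low libraries. These values interleave, and the 95% interval of the log2 fold change ran from -0.41 to 0.57. Eif2s2, the beta subunit (chromosome 2, 154871410 to 154892935, mm10), had 79.8 and 79.6 against 66.8 and 54.1 CPM, with both CD63 high libraries above both CD63 low libraries. Its log2 fold change of 0.40 (SE 0.20) had an adjusted p of 0.396. The 5 eIF2B genes, of the exchange factor that phosphorylated eIF2 blocks, had log2 fold changes of -0.04 (Eif2b5) to 0.27 (Eif2b3). Eif2d and Eif2a, whose products can deliver tRNA without eIF2, stood at 0.20 (SE 0.21) and 0.07 (SE 0.22).

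None of the 4 eIF2 alpha kinase genes passed, and 3 of the 4 log2 fold changes lay below 0. Eif2ak3, which encodes PERK, the kinase that senses unfolded protein in the endoplasmic reticulum, stood at 39.0 and 23.8 CPM in CD63 high and 22.0 and 49.1 CPM in CD63 low replicates 1 and 2. The CD63 low libraries were thus the lowest and the highest of the 4. Its log2 fold change was -0.18 (SE 0.36), and it was 0.13 without CD63 high replicate 2 and 0.53 without CD63 low replicate 2. Eif2ak4, the amino acid sensor GCN2, had 5.17 and 3.47 against 4.98 and 7.52 CPM (-0.53, SE 0.38). Eif2ak2, the double-stranded RNA sensor PKR, had 20.8 and 12.3 against 13.0 and 13.9 CPM, so that CD63 high replicate 1 alone was high (0.30, SE 0.29, and -0.13 without that library). Eif2ak1, the heme-regulated kinase, stood at 24.7 and 25.3 against 25.4 and 30.0 CPM (-0.15, SE 0.22, 95% interval -0.63 to 0.34). In CPM its groups did not overlap, but CD63 low replicate 1 lay only just above CD63 high replicate 2. In TPM its groups overlapped, at 7.15 and 6.46 against 6.33 and 9.88. The 95% intervals of the other kinase genes were wide, from -1.37 to 0.30 for Eif2ak4 and from -0.97 to 0.61 for Eif2ak3.

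The eIF3 complex, the large scaffold that holds initiation factors on the small subunit, had 0 of 14 genes past the threshold. Its log2 fold changes lay between -0.03 (Eif3a) and 0.44 (Eif3j2), and 13 of 14 lay above 0. The groups did not overlap for 8 of them, all with CD63 high above CD63 low (against 23.8% of all genes), for 6 when scaled by total counts alone (22.5%) and for 1 in TPM (19.6%). Eif3i (chromosome 4, 129591960 to 129600648, mm10) stood at 69.1 and 65.8 CPM in CD63 high and 49.5 and 51.5 CPM in CD63 low libraries. On this scale both replicates of each group lay close together, but in TPM the groups overlapped, at 30.6 and 25.7 against 18.9 and 26.0. The log2 fold change of 0.42 (SE 0.19) had an adjusted p of 0.343 with an interval of -0.01 to 0.84. Eif3g, the most abundant subunit per length, had 107 and 91.6 against 89.0 and 81.4 CPM (0.22, SE 0.20).

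Other eIF3 subunits followed the libraries more than the groups. Eif3b stood at 144 and 70.9 CPM in CD63 high and 72.4 and 121 CPM in CD63 low replicates 1 and 2. Eif3c had 153 and 99.6 against 95.6 and 137 CPM, and Eif3d 71.6 and 57.4 against 48.5 and 68.0 CPM. In all 3 genes CD63 high replicate 1 and CD63 low replicate 2 were the highest libraries. Per length, the 12 subunits without the loosely bound eIF3j ranged from 8.59 TPM to 88.4 TPM. The lowest value was that of Eif3e in CD63 low replicate 1 and the highest that of Eif3g in CD63 high replicate 1. Eif3e has an exon length of 6719 bases but 1506 in its longest coding transcript, so its TPM depends on the length used. The medians of the 12 were 36.8 and 31.5 TPM in CD63 high and 29.8 and 34.7 TPM in CD63 low libraries. The eIF3j genes are near copies, and 91.8% of the 50-base stretches of Eif3j2 also occur in other genes, so that its 0.958 to 1.95 CPM are uncertain. Eif3j1 stood at 17.7 and 16.2 against 14.5 and 13.6 CPM.

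Of the eIF4 genes of cap binding and mRNA unwinding, 0 of 11 passed. Of their log2 fold changes, 8 of 11 lay below 0, with a median of -0.08. In CPM both CD63 low libraries lay above both CD63 high libraries for 6 (against 22.2% of all genes). The reverse held for 2 (against 23.8%). In TPM the groups of Eif4a3, Eif4g2, Eif4g3, Eif4h and Eif4e2, which were apart in CPM, overlapped. Eif4g2, which encodes an eIF4G-like protein without the eIF4E site and whose own translation begins at a codon other than AUG, stood at 306 and 292 CPM in CD63 high and 313 and 456 CPM in CD63 low replicates 1 and 2. CD63 low replicate 2 alone was far from the rest, and the log2 fold change of -0.36 (SE 0.22) was -0.05 without that library. Eif4b, the helicase cofactor, had 27.7 and 29.8 against 37.0 and 38.7 CPM. Here both CD63 low libraries lay above both CD63 high libraries (-0.40, SE 0.21, adjusted p 0.413). The scaffold genes Eif4g1 and Eif4g3 had log2 fold changes of -0.19 (SE 0.23) and -0.21 (SE 0.23), which were 0.09 and -0.03 without CD63 high replicate 2. Eif4h, another helicase cofactor, stood at 131 and 132 against 133 and 139 CPM.

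The helicase paralogs had log2 fold changes of both signs, with none past the threshold. Eif4a1, the main eIF4A of growing cells (chromosome 11, 69666936 to 69672423, mm10), stood at 178 and 192 CPM in CD63 high and 153 and 148 CPM in CD63 low libraries, a log2 fold change of 0.30 (SE 0.19). Eif4a2 had 91.5 and 106 against 115 and 108 CPM (-0.18, SE 0.19), and Eif4a3, a core protein of the exon junction complex, 81.5 and 88.4 against 88.6 and 90.5 CPM (-0.08, SE 0.19). Eif4e, the cap-binding protein, was spread evenly over the groups at 75.6 and 100.1 against 84.4 and 88.5 CPM, with a 95% interval of -0.44 to 0.48. Its paralogs Eif4e2 and Eif4e3 had log2 fold changes of 0.20 (SE 0.21) and -0.00 (SE 0.24).

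Of the genes whose proteins hold eIF4E back, 0 of 3 tested passed, and their log2 fold changes had both signs. Eif4ebp1 (chromosome 8, 27260329 to 27276674, mm10), a repressor of cap-dependent initiation and a known target gene of ATF4 in stressed islets, stood at 104 and 120 CPM in CD63 high and 92.4 and 66.8 CPM in CD63 low replicates 1 and 2. The groups did not overlap, and the log2 fold change was 0.49 (SE 0.22, edgeR adjusted p 0.321, 95% interval 0.01 to 0.97). Eif4ebp2 had 20.0 and 22.6 against 38.7 and 15.9 CPM. Its CD63 low libraries enclosed the CD63 high libraries, so that the log2 fold change of -0.36 (SE 0.35) was 0.42 without CD63 low replicate 1. Eif4enif1, which encodes the eIF4E transporter of processing bodies, had 10.3 and 9.03 against 15.2 and 15.6 CPM. Both CD63 high libraries lay below both CD63 low libraries, and the log2 fold change of -0.67 (SE 0.25) had an adjusted p of 0.236.

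**Figure D3:**
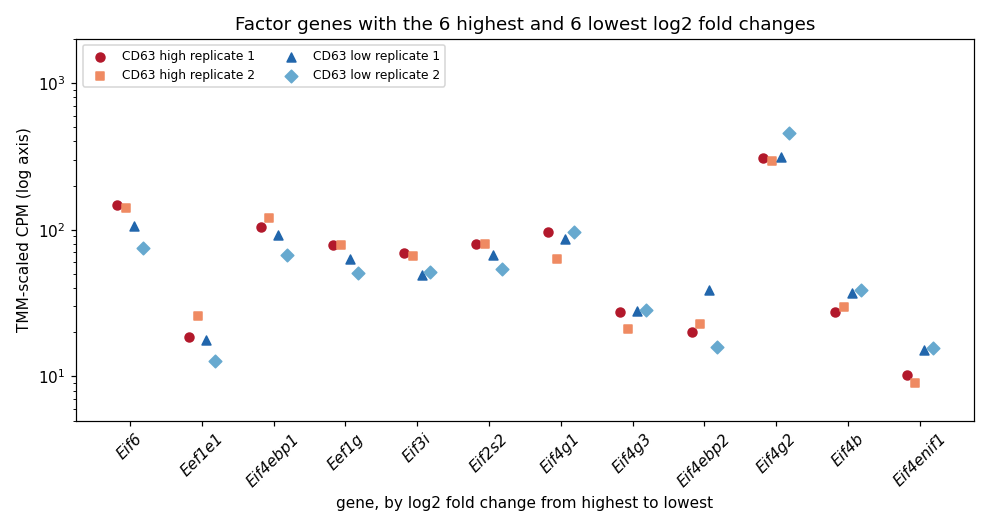
TMM-scaled CPM (log axis) in each library of the genes with the 6 highest and the 6 lowest log2 fold changes among members whose average log2 CPM was 3 or more. Eif6 lies at 147 and 141 CPM in CD63 high and at 106 and 74.7 CPM in CD63 low libraries, and Eif4ebp2 has its highest and its lowest value in the CD63 low libraries.

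Eif6 had the smallest p of all members. It encodes the factor that keeps the ribosomal subunits apart and takes part in large subunit maturation, and it lies on chromosome 2 at 155819832 to 155826925 (mm10). It stood at 147 and 141 CPM in CD63 high and 106 and 74.7 CPM in CD63 low replicates 1 and 2. The CD63 high libraries were both above the CD63 low libraries, and the CD63 low libraries lay further apart from each other than the CD63 high libraries did. The log2 fold change of 0.68 (SE 0.22) had an edgeR adjusted p of 0.145. DESeq2 (adjusted p 0.0454), edgeR with no filter on low counts (0.0479) and edgeR without CD63 low replicate 1 (0.0181, log2 fold change 0.95) called it, against 5.18%, 5.12% and 5.50% of all genes in these fits, and RLE size factors, library size only, limma-voom, the replicate block and leaving out any other library did not.

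The eIF5A genes differed in level per length by 224-fold to 707-fold within a library. Eif5a stood at 608 and 767 CPM in CD63 high and 643 and 519 CPM in CD63 low libraries, with a log2 fold change of 0.24 (SE 0.21). Eif5a2, its low paralog with the same lysine codon, had 1.82 and 3.14 against 3.76 and 4.90 CPM. The groups of Eif5a2 did not overlap, and its log2 fold change of -0.81 (SE 0.44) had an adjusted p of 0.446 and an interval of -1.79 to 0.17, which reaches past 2-fold.

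All 5 tested genes of the eEF1A role had both CD63 high libraries above both CD63 low libraries, against 23.8% of all genes, and 0 of 5 passed. The groups of all 5 were also apart with total counts or RLE size factors as the scaling, but in TPM those of Eef1a1 overlapped. Eef1a1 (chromosome 9, 78478449 to 78489151, mm10) stood at 398 and 379 CPM in CD63 high and 362 and 303 CPM in CD63 low replicates 1 and 2 (log2 fold change 0.22, SE 0.19). Eef1g, the gamma subunit of the exchange complex, had 79.2 and 78.3 against 63.1 and 50.8 CPM (0.47, SE 0.20, adjusted p 0.308). For both genes CD63 low replicate 2 was the lowest library. The exchange subunits Eef1b2 and Eef1d had log2 fold changes of 0.36 (SE 0.22) and 0.37 (SE 0.20). Eef1e1, named as an elongation factor but known as a scaffold of the tRNA synthetase complex, had 18.5 and 25.9 against 17.6 and 12.8 CPM (0.55, SE 0.27).

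Of the genes of eEF2 and its kinase, 0 of 2 passed. Eef2 stood at 258 and 222 CPM in CD63 high and 224 and 205 CPM in CD63 low cells, where CD63 low replicate 1 reached the level of CD63 high replicate 2 (log2 fold change 0.16, SE 0.19). Eef2k, the kinase of the threonine shown above, had 5.36 and 4.19 against 4.15 and 5.16 CPM, with a log2 fold change of 0.04 (SE 0.36). The 5 methyltransferase genes of eEF1A and eEF2 had 0 past the threshold and log2 fold changes of 0.02 (Eef2kmt) to 0.59 (Eef1akmt4). Of the Eef1akmt4 exon bases, 31.7% are shared with exons of other genes, one of them on the same strand, and reads from these cannot be told apart here.

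Ratios between genes within a library do not depend on the scaling between libraries, and 13 were formed between paralogs or partners. Of these, 6 were higher in both CD63 high than in both CD63 low libraries and 0 were lower. Inverting a ratio reverses its direction, so that this split depends on which gene was written as numerator. The 6 are not separate, as Eif4a1 is the numerator over both Eif4a2 and Eif4a3, and Eif4ebp1 over both Eif4ebp2 and Eif4e. Ratios of other genes were not examined, so that these counts have no background. For levels of single genes in CPM, the groups did not overlap for 46.0% of all tested genes, and CD63 high was above for 23.8%. These shares do not apply to ratios in TPM. The TPM ratio of Eif4a1 over Eif4a2 was 2.40 and 2.24 in the CD63 high replicates, compared with 1.64 and 1.68 in the CD63 low replicates. Eif4ebp1 over Eif4e was 3.78 and 3.27 against 2.99 and 2.07, and Eif4ebp1 over Eif4ebp2 13.7 and 13.9 against 6.29 and 11.1. The ratio of Eif4a1 over Eif4a2 varied less within each group than it differed between the groups. Eif5a over Eif5a2 was 707 and 516 against 362 and 224, and Eif1ax over Eif1a 0.211 and 0.228 against 0.193 and 0.156. The ratio of Eif1 over Eif1b stayed between 3.67 and 4.05, that of Eef1a1 over Eef2 between 1.97 and 2.28, and both overlapped between the groups. With 2 libraries on each side, the smallest two-sided p of an exact permutation test is 0.333, which no ratio could pass at 0.05, and no other test was run on the ratios.

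**Figure D4:**
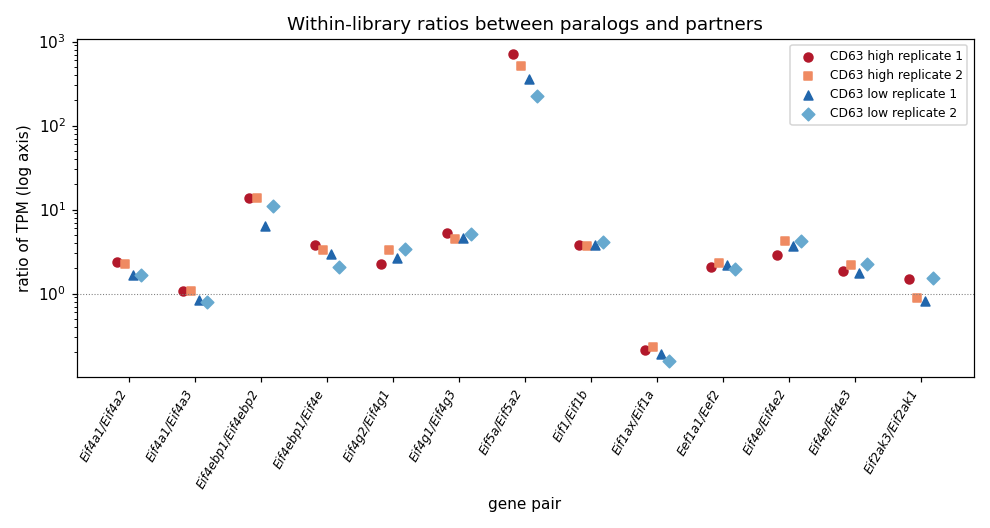
Ratio of TPM within each library (log axis) for 13 pairs of paralogs or partners, with 1 point per library. Eif4a1 over Eif4a2 lies at 2.24 to 2.40 for CD63 high and at 1.64 to 1.68 for CD63 low, and Eif1 over Eif1b at 3.67 to 4.05 in all libraries.

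The other translation genes, a list of 63 genes of poly(A) binding, termination, mTORC1 signalling, hypusine and diphthamide synthesis, mitochondrial translation and related steps, gave the same count. On all 4 libraries, the main edgeR fit called 0 of 63, and DESeq2 and limma-voom called 0 each. These 0 counts do not cover the fits that left out a library. In the main fit 3 had an unadjusted p under 0.05, beside 14.9% of all genes. The median log2 fold change of the 63 genes was 0.02, and it was 0.00 to 0.04 when a library was left out. Pabpc1, the main poly(A)-binding protein and partner of eIF4G, stood at 74.1 and 64.9 CPM in CD63 high and 48.1 and 47.7 CPM in CD63 low libraries (0.54, SE 0.20, adjusted p 0.207). Ppp1r15a, a phosphatase subunit that reverses eIF2 alpha phosphorylation, Mcts1 and Denr, which act together in recycling and reinitiation, had log2 fold changes of 0.49 (SE 0.22), 0.52 (SE 0.23) and 0.40 (SE 0.19). At the other end stood Tsc2 (-0.78, SE 0.35), a brake on mTORC1, Dnajc24 (-0.55, SE 0.25), a diphthamide gene, Larp1 (-0.37, SE 0.21), a repressor of the mRNAs of the translation machinery, and Mlst8 (-0.44, SE 0.28), an mTOR partner. Tsc2 stood at 19.7 and 11.8 CPM in CD63 high and 17.6 and 36.3 CPM in CD63 low replicates 1 and 2. Cyfip1, a further gene of the list, had 15.5 and 14.5 against 12.6 and 30.1 CPM (-0.51, SE 0.35). In both genes CD63 low replicate 2 alone was high, and the groups overlapped. Cytosolic ribosomal protein genes, whose mRNAs carry a terminal oligopyrimidine tract as those of elongation factors do, were compared with all tested genes. Of all genes edgeR called 2.79%, DESeq2 5.18%, limma-voom 2.14% and edgeR without CD63 low replicate 1 5.50%. An unadjusted p under 0.05 was reached by 14.9% in the main fit. That share was 12.3% and 11.2% without CD63 high replicates 1 and 2, and 12.2% without CD63 low replicate 2. The main edgeR fit called 0 of the 77 ribosomal protein genes, and 29 had an unadjusted p under 0.05. The median log2 fold change of the 77 was 0.48. DESeq2 called 2 of them, limma-voom 0, and edgeR without CD63 low replicate 1 called 21, all higher. Without CD63 low replicate 2 edgeR called 0 (3.77% of all genes), with 1 at an unadjusted p under 0.05 and a median of 0.26, and without CD63 high replicate 1 or 2 it called 0 (3.72% and 3.25%), with 9 and 8.

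Some translation factor genes differed between replicates in a crossed order. In 9 members, among them Eif2ak3, Eif2ak4, Eif3b, Eif3c, Eif3d and Eif4g1, CD63 high replicate 1 and CD63 low replicate 2 were both above the other libraries (14.3%, against 17.7% of all tested genes). In 13 members, among them Eif5a, Eif1, Eif1b, Eif2s1 and Eif4ebp2, they were both below (20.6%, against 17.4%). Across the 63 members, which are not independent replicates, the difference of CD63 high replicate 1 from replicate 2 and that of CD63 low replicate 2 from replicate 1 had a Spearman correlation of 0.33, beside 0.21 over all tested genes. With exon length these differences had Spearman correlations of 0.37 and 0.48 across members, and 0.22 and 0.20 across all genes. The log2 fold change itself had one of -0.25 with exon length across members and -0.24 across all genes. The 31 members with exon length below the median of all tested members had a median log2 fold change of 0.22 and the 32 others one of 0.08. The part of transcript length in these values was not tested.

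**Figure D5:**
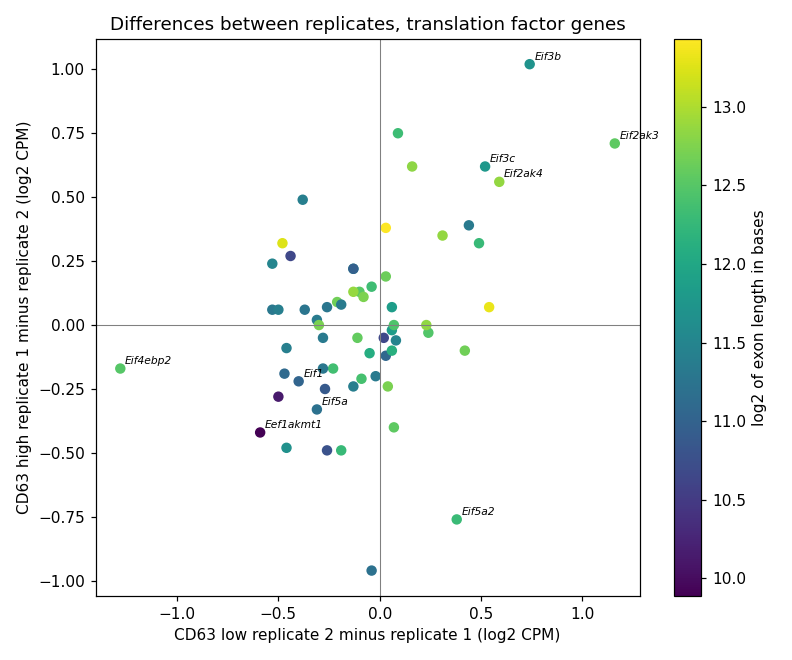
Difference between replicates in log2 CPM (pseudocount 0.1) for the 63 tested translation factor genes, CD63 low replicate 2 minus replicate 1 on the horizontal and CD63 high replicate 1 minus replicate 2 on the vertical axis, coloured by log2 exon length. Eif3b, Eif2ak3 and Eif3c lie high on both axes, Eif5a and Eef1akmt1 low on both, with a Spearman correlation of 0.33.

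How the reads were counted limits some of these genes more than others. Under the deposited settings a read with several alignments is left out. Of the 50-base stretches in the longest coding transcript, 65.3% of Eif4a1, 64.3% of Eef1g and 59.2% of Eef1a1 also occur in a transcript of another gene, and how many of their reads were lost was not tested. Exons of other genes cover 67.3% of Eif4ebp3, 43.3% of Eif3d, 31.7% of Eef1akmt4, 23.0% of Eef2kmt, 19.0% of Eif3j1 and 16.8% of Eif5b. The 32 members with under 5% of such sharing and under 5% of such overlap had 0 called, log2 fold changes above 0 for 21 and a median of 0.08.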

How the data were processed

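The authors deposited 1 table of raw fragment counts per library, made with featureCounts 1.6.2 from merged alignments, in paired-end mode, grouped by gene name, without options for strand or multi-mapping and with gene models from Cell Ranger's mm10 reference 3.0.0, per the file headers. STAR 2.6.0c and FastQC are named per the submitters' processing notes, without role. Per the labels' protocols, cDNA came from a SMARTer low-input kit and Nextera XT libraries, which carry no strand, and no molecular identifiers are named, so floors cover counting error only. Total counts were 29249270 to 35003307.

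Genes were kept with filterByExpr (minimum count 10, minimum total 15) of edgeR 4.0.16 in R 4.3.3, which left 13241, scaled by TMM (factors 0.921 to 1.113) and compared between groups by glmQLFit and glmQLFTest with Benjamini-Hochberg adjustment over all of them and a threshold of 0.05. Every fold change has CD63 high as numerator. An SE is |log2 fold change| divided by √F. CPM values use TMM scaling, except for marker sums and floors, which use total counts. DESeq2 1.42.0, limma-voom (limma 3.58.1), other scalings, no filter, leaving out each library and a replicate block served as alternatives. No 2 files held the same values. Members, lists and tests were chosen with earlier results of these data known. Named members were the 10 highest by TPM, the 6 highest and 6 lowest log2 fold changes at an average log2 CPM of 3 or more, and a fixed set of paralogs and regulators. From the list of other translation genes the 4 with the smallest p per direction were named. Further members and Cyfip1 were named, and the Tsc2 libraries described, after their values were seen. Ratios and replicate patterns are descriptions, and the overlap of groups in TPM was examined after the data were seen. Sequences were read from GENCODE M21.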

Additional observations from a re-analysis of the deposited data

How the results depend on the processing

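Over 10 other settings the 35 named tested members gave 350 values, of which 329 kept the sign and the side of the threshold, 18 changed sign and 3, all of Eif6, passed the threshold (log2 fold changes 0.68 with DESeq2, 0.67 with no filter, 0.95 without CD63 low replicate 1). The count of members called was 0 with RLE size factors, library size only, limma-voom and the replicate block, 1 with DESeq2, 1 with no filter, and 0 to 1 when a library was left out. Their median log2 fold change was 0.13 to 0.22 when a library was left out. All values that changed sign were of genes without a call: with library size only Eef2k -0.01 and Eif4e -0.03, Eif4e3 0.00 with RLE size factors and with DESeq2 and 0.01 with limma-voom, without CD63 high replicate 1 Eef2k -0.16, Eif2ak2 -0.13 and Eif4e3 0.08, without CD63 high replicate 2 Eif2ak3 0.13, Eif2s1 -0.19, Eif3j2 -0.16, Eif4e -0.19 and Eif4g1 0.09, without CD63 low replicate 1 Eef2k -0.11, Eif4e -0.01, Eif4e3 0.14 and Eif4ebp2 0.42, and without CD63 low replicate 2 Eif2ak3 0.53. When a library was left out, these genes ranged from -0.65 to 0.53 (Eif2ak3), -0.13 to 0.63 (Eif2ak2), -0.19 to 0.31 (Eif2s1), -0.16 to 0.86 (Eif3j2), -0.19 to 0.21 (Eif4e), -0.12 to 0.14 (Eif4e3), -0.85 to 0.42 (Eif4ebp2), -0.53 to 0.09 (Eif4g1) and -0.16 to 0.22 (Eef2k). The cause was not tested. Over all genes the calls were 67 (66 higher, 1 lower) with library size only, 686 (534 and 152) with DESeq2, 940 (690 and 250) of 18371 with no filter, and 450 to 769 (378 to 512 higher, 56 to 257 lower) when a library was left out, against 369 (331 and 38). With the replicate number as a block there were 616 calls (535 and 81), 0 of them members. Deviations of same-numbered libraries from their group means had a correlation of -0.101, and the crossed pairing, added after the data were seen, gave 942 calls (607 and 335), 1 of them a member (Eif6). The labels do not say that the numbers pair the libraries, and the deposited tables number CD63 low replicates 1 and 2 as 2 and 3, so that by those numbers only CD63 high replicate 2 and CD63 low replicate 1 would match, as in the crossed pairing. Depth limits the lowest members, such as Eif5a2, Eif3j2, Eef2k and Eif2ak4.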
